A study of Mus musculus with 12 samples.

Results

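Polycomb repressive complex 2 (PRC2) is represented here by 7 genes, Ezh1, Ezh2, Eed, Suz12, Jarid2, Mtf2 and Phf19, whose mRNA levels were followed in mouse embryonic stem (ES) cells after knockdown (KD) of regulators of DNA methylation and of its readers. The genes were chosen by name, as the catalytic and structural core of the complex and 3 of its accessory subunits. The rule uses no measured value, but it was set with earlier results of these data known. Probes were assigned to them through the RefSeq accession that the array design gives for each probe. This yielded 10 of the 39429 probes on the arrays, of which 9 were bright enough to be tested, and the brightest probe of each gene entered the comparison as 1 of 29838 genes.

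The study hybridised 12 one-colour Agilent 4 × 44K mouse whole-genome arrays with RNA of E14 cells, a male ES cell line grown without feeder cells in serum and LIF. Every group received esiRNAs (pools of short RNAs cut from a longer double-stranded RNA) by transient transfection and was collected after 48 hr, with 2 arrays in each of 6 groups. The control was EGFP KD. The other groups were Dnmt1 KD (the maintenance DNA methyltransferase), Tet1 KD (an enzyme that oxidises 5-methylcytosine), Mbd3 KD and Mbd2 KD (methyl-CpG-binding-domain proteins that define alternative forms of the NuRD complex) and Chd4 KD (the chromatin-remodelling ATPase of NuRD). The question was which mRNAs respond to loss of these factors. A KD is a partial, transient loss in 1 cell line at 1 time, and the arrays report mRNA, not PRC2 protein or its histone mark. As in any bulk sample, fewer cells that express a gene and less RNA per cell cannot be told apart.

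PRC2 methylates lysine 27 of histone H3 and keeps developmental regulators silent in ES cells. Ezh1 and Ezh2 are its alternative catalytic subunits, Eed reads the methylated lysine and stimulates the enzyme, and Suz12 holds the complex together. Mtf2 and Phf19 belong to the Polycomb-like family, which helps to bring PRC2 to unmethylated CpG-rich DNA, whereas Jarid2 belongs to the other main form of the complex, in which it aids recruitment and activity.

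CpG is the dinucleotide that Dnmt1 keeps methylated and that methyl-CpG-binding domains read. RefSeq start sites (GRCm38.p6) gave 9 windows of 250 bases upstream of a start for the 7 genes, including 2 each for Jarid2 and Mtf2. Among all 32841 such windows the median number of CpGs was 6, and all member windows but the second Mtf2 window held more. The Suz12 window held 37 CpGs, Phf19 31, Ezh2 23, Ezh1 14 and Eed 12. The windows of Jarid2 held 23 and 22, and those of Mtf2 23 and 2. The windows of 3 members are shown 5′ to 3′ on the gene's strand, with each CG in capitals: Phf19, the member with the largest differences between KDs, Jarid2, the next, and Eed, the member that varied least over the arrays. The Phf19 window is chr2:34913977-34914226 on the minus strand, the Jarid2 window chr13:44730524-44730773 on the plus strand and the Eed window chr7:89980977-89981226 on the minus strand.
Phf19: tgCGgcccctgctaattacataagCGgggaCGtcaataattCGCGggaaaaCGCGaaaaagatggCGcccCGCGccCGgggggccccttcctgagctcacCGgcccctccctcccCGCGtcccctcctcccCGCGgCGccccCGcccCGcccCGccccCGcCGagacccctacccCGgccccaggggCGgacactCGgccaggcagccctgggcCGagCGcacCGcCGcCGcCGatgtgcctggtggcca
Jarid2: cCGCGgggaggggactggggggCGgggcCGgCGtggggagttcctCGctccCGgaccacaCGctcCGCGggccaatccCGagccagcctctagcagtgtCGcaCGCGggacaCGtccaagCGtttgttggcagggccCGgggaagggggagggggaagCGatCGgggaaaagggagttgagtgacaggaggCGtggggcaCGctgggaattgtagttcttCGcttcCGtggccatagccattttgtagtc
Eed: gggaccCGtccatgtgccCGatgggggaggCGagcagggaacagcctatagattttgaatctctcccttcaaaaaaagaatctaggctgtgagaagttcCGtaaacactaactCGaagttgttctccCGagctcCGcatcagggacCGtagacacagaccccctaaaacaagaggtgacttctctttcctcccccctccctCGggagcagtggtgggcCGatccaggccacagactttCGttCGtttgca
As many or fewer CpGs than in the Phf19 window were found in 95.4% of all windows, against 88% for the Jarid2 window and 68.5% for the Eed window. The GC box GGGCGG, searched on both strands, occurred 4 times in the Phf19 window, overlapping matches included, once in the Jarid2 window and not in the Eed window, and 32.7% of all windows held at least 1. Among the windows not shown, Suz12 held 3, the second Jarid2 and first Mtf2 windows 1 each, and the Ezh1, Ezh2 and second Mtf2 windows 0. For CpGs, Suz12 stood at 98.1% and Ezh2 at 88%. The order of the 3 windows shown thus does not hold over all members. An E2F-type motif, spelled TTTCCCGC, TTTGGCGC, TTTGCCGC or TTTCGCGC on either strand, occurred once in the Phf19 window, once in the Suz12 window and in no other member window, and 1.86% of all windows held at least 1. These are matches of letters in a reference sequence, and no methylation or binding was measured in the array files.

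Values are log2 of the processed signal divided by the 75th percentile of its array, so that 0 is the level of that percentile, and each probe is compared only with itself across arrays. The 75th percentile lay between 1783.5 and 2445.1 signal units, and 76.9 to 95.1% of probes were well above background per array. The arrays lay on 3 slides, slide 1 with 1 array each of EGFP, Dnmt1, Mbd3 and Mbd2 KD, slide 2 with EGFP, Chd4 and both Tet1 KD arrays, and slide 3 with Dnmt1, Mbd3, Mbd2 and Chd4 KD but no control. Of the targeted genes, Mbd3 fell by 2.96 on the log2 scale in its KD (limma, adjusted p = 0.0042) and Chd4 fell by 1.27 (adjusted p = 0.043). Dnmt1 was 1.63 and 2.34 below the EGFP KD mean on its 2 arrays, with an adjusted p of 0.37. For Tet1 and Mbd2 the first replicates went against their labels. Relative to the EGFP KD mean, the brighter Tet1 probe stood at -0.02 and -1.81 on the first and second Tet1-labelled arrays but at -1.78 and -0.19 on the Mbd2-labelled ones. The dimmer Mbd2 probe stood at -1.74 and -0.23 on the Tet1-labelled arrays and at -0.23 and -1.77 on the Mbd2-labelled ones, whereas the brighter Mbd2 probe was at -0.07 on both of the latter. These groups are therefore described by their labels (Tet1-labelled, Mbd2-labelled), and results that share the fit with them were also computed without both first replicates.

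No PRC2 subunit passed an adjusted p of 0.05 in any of the 5 comparisons with EGFP KD (limma on all 12 arrays with Benjamini-Hochberg adjustment). Over all genes the share called was 0% for Dnmt1 KD, 0% for the Tet1-labelled arrays, 0.771% for Mbd3 KD, 0% for the Mbd2-labelled arrays and 3.17% for Chd4 KD (1.96% higher and 1.21% lower). At an unadjusted p under 0.05, no member passed in Dnmt1 KD or on the Tet1-labelled or Mbd2-labelled arrays, against 4.74%, 2.83% and 2.05% of all genes. Phf19 passed in Mbd3 KD, against 9.67% of all genes, and Phf19 and Jarid2 passed in Chd4 KD, against 12.8% of all genes. With 2 arrays against 2 an exact permutation test of a single gene cannot give a two-sided p below 0.333, so all tests rest on the spread that limma pooled over the 6 groups and moderated across genes.

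**Figure D1:**
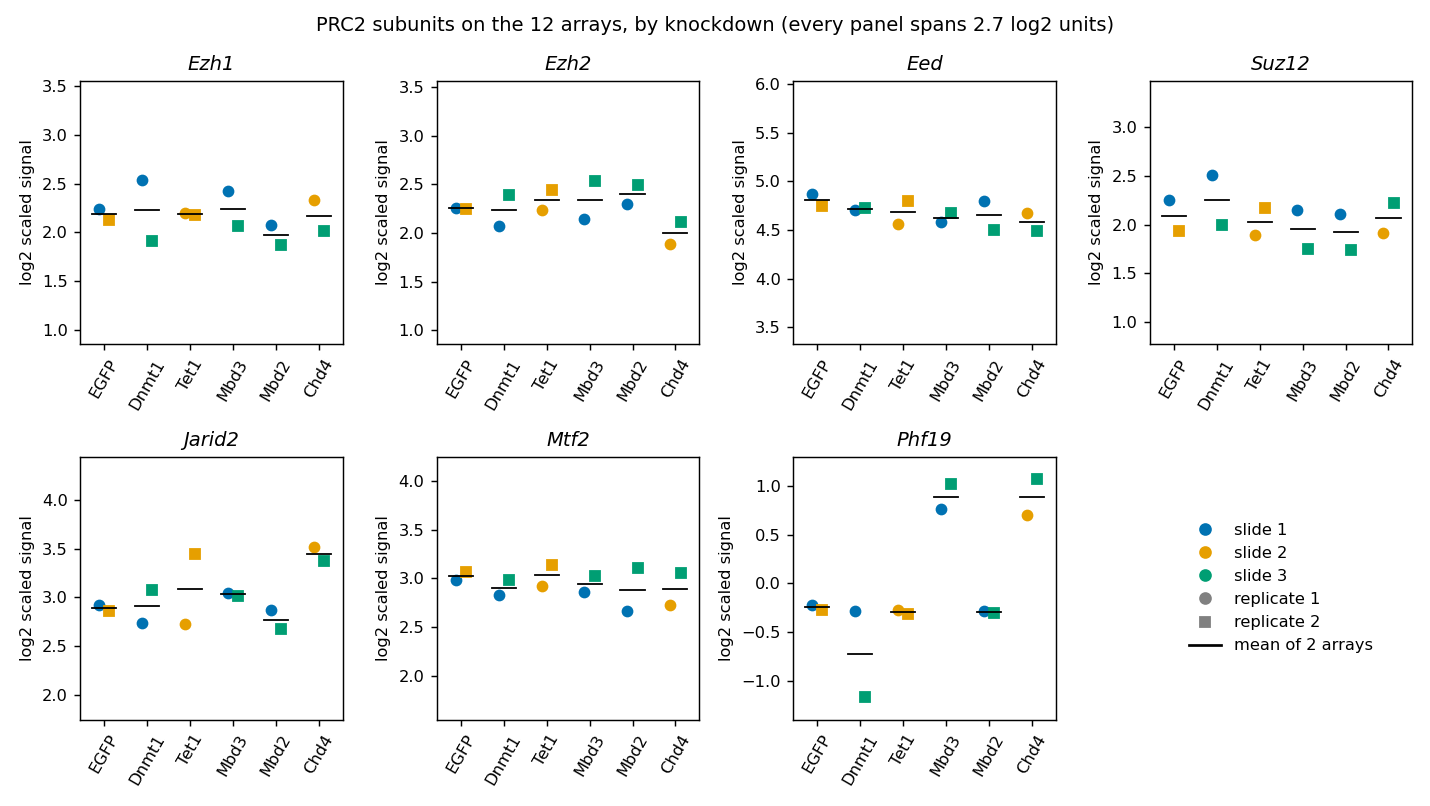
Log2 scaled signal (vertical axis) of the 7 PRC2 subunits on each of the 12 arrays, by KD (horizontal axis); colours mark the slide, symbols the replicate and bars the mean of 2 arrays. Phf19 stands higher on both Mbd3 KD and both Chd4 KD arrays (0.70 to 1.07) than on the 8 other arrays (-1.17 to -0.22), while the 4 core genes vary by at most 0.78 over all arrays.

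Differences of the 4 core genes from their control levels were small. Their 20 log2 fold changes against EGFP KD lay between -0.25 and 0.17, with standard errors of 0.14 to 0.25 and adjusted p values (limma) of 0.64 or above. The 95% confidence intervals spanned -0.76 to 0.76 over all 20, so that the arrays do not exclude changes of a core gene of up to 1.7-fold.

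Ezh2, the main methyltransferase of dividing ES cells, gave 2.26 and 2.25 on the EGFP KD arrays. It gave 2.07 and 2.39 in Dnmt1 KD, 2.24 and 2.44 on the Tet1-labelled arrays, 2.14 and 2.53 in Mbd3 KD, 2.30 and 2.49 on the Mbd2-labelled arrays, and 1.89 and 2.11 in Chd4 KD. Both Chd4 KD arrays were below both control arrays, and both Mbd2-labelled arrays above them, while the other KDs overlapped the controls. The Chd4 KD difference was -0.25 ± 0.18 (SE, n = 2, limma adjusted p = 0.74). The widest gap between replicates was 0.39, in Mbd3 KD, whose arrays lie on slides 1 and 3. Within slide 2 the difference of Chd4 KD from EGFP KD was -0.36, 1 array against 1. On slide 3 the Dnmt1 KD, Mbd3 KD and Mbd2-labelled arrays were 0.28, 0.42 and 0.38 above the Chd4 KD array.

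Ezh1, the alternative methyltransferase, gave 2.24 and 2.13 on the control arrays. On the KD arrays its values ran from 1.87 (Mbd2-labelled replicate 2) to 2.54 (Dnmt1 KD replicate 1), and the 2 Dnmt1 KD arrays were themselves 0.63 apart. Only the Mbd2-labelled arrays did not overlap the controls, at 2.08 and 1.87, with a difference of -0.20 ± 0.23 (SE, n = 2, limma adjusted p = 1). The other Ezh1 probes did not move the same way: on the Mbd2-labelled arrays a probe of middle brightness gave 0.16 ± 0.18 (SE) and the dimmest gave 0.06 ± 0.37 (SE), the latter being well above background on 11 of the 12 arrays. For Chd4 KD the 3 probes gave -0.01, 0.23 and 0.47 from the brightest to the dimmest, and none passed the test over all probes (limma, adjusted p of 0.77 or above).

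Eed, the reader of the methylated lysine, was the steadiest member, with a standard deviation of 0.12 over the 12 arrays, at or above that of 6.39% of genes. Its control values were 4.87 and 4.75, and both arrays were lower than both controls in Dnmt1 KD (4.70 and 4.73), Mbd3 KD (4.58 and 4.67) and Chd4 KD (4.67 and 4.49). The differences were -0.09, -0.19 and -0.23, each with a standard error of 0.14 and none passing the test (limma, adjusted p = 0.97, 0.81 and 0.64). These comparisons share the same 2 control arrays.

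Suz12, the scaffold, gave 2.25 and 1.93 on the control arrays and values from 1.74 (Mbd2-labelled replicate 2) to 2.51 (Dnmt1 KD replicate 1) on the others, and every KD overlapped the controls. Its fold changes lay between -0.17 on the Mbd2-labelled arrays and 0.17 in Dnmt1 KD, each with a standard error of 0.25.

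Mtf2, the Polycomb-like subunit most associated with PRC2 in ES cells, overlapped the controls in every KD. Its control values were 2.98 and 3.07, its lowest value was 2.66 (Mbd2-labelled replicate 1) and its highest 3.14 (Tet1-labelled replicate 2). Fold changes ran from -0.14 on the Mbd2-labelled to 0.01 on the Tet1-labelled arrays with a standard error of 0.18. A second Mtf2 probe, designed to another transcript, was not well above background on any of the 12 arrays.

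**Figure D2:**
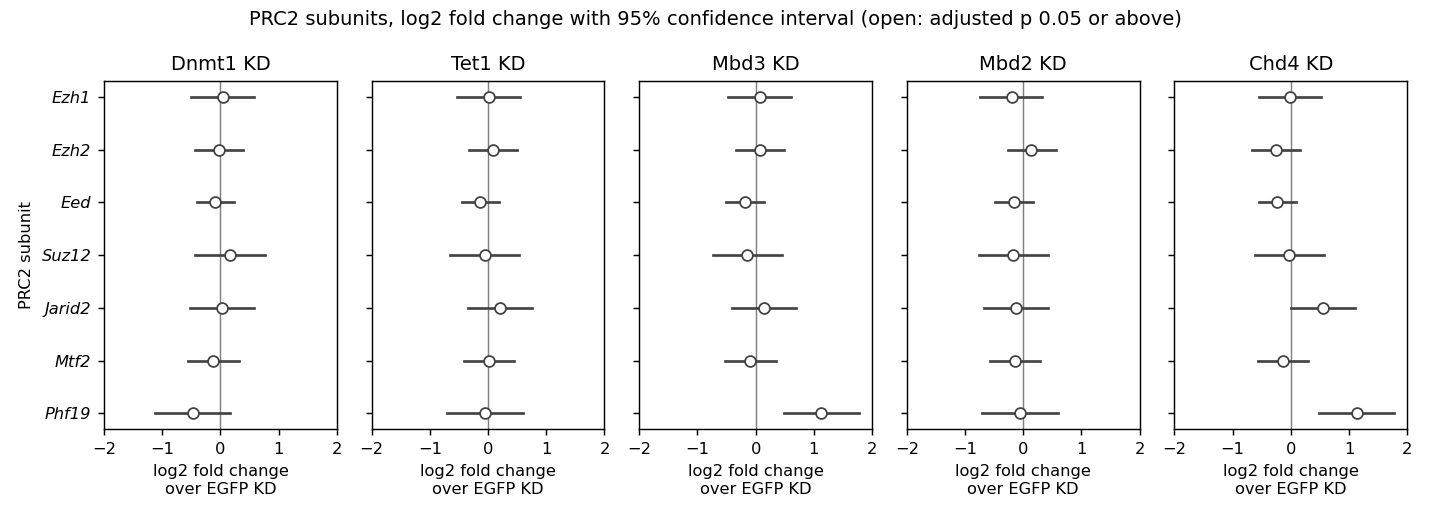
Log2 fold change over EGFP KD (horizontal axis) with its 95% confidence interval for each PRC2 subunit (vertical axis), 1 panel per KD; open circles did not pass an adjusted p of 0.05 (limma). Intervals lie clear of 0 for Phf19 in Mbd3 KD and Chd4 KD (0.48 to 1.78 in both) and for Jarid2 in Chd4 KD (0.01 to 1.11).

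Jarid2, a member of the Jumonji family that lacks demethylase activity, was measured by a single probe and gave 2.92 and 2.86 on the control arrays. Chd4 KD gave 3.52 and 3.37, Mbd3 KD 3.05 and 3.01, and Dnmt1 KD 2.74 and 3.08, with 2.87 and 2.67 on the Mbd2-labelled arrays. The Tet1-labelled arrays disagreed, at 2.73 and 3.45, the widest gap for this gene between arrays of 1 label (0.72). Only the second of them had low Tet1, and the pair enters the pooled spread. Both Chd4 KD and both Mbd3 KD arrays were above both controls. In Chd4 KD the difference was 0.56 ± 0.23 (SE, n = 2), a signal 1.47-fold that of the control, which did not pass the test (limma, unadjusted p = 0.047, adjusted p = 0.38). On slide 2 Chd4 KD was 0.66 above EGFP KD, 1 array against 1. On slide 3 the Dnmt1 KD, Mbd3 KD and Mbd2-labelled arrays differed from the Chd4 KD array by -0.29, -0.36 and -0.71. Over 26 alternatives the Chd4 KD difference ran from 0.49 to 0.74. The Mbd3 KD difference was 0.14 ± 0.23 (SE, n = 2, limma adjusted p = 0.91).

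Phf19, the Polycomb-like subunit that binds methylated lysine 36 of histone H3 through its Tudor domain, showed the largest differences among the members. Phf19 was measured by a single probe, so no other probe could be compared with it. Its control values were -0.22 and -0.27. In Mbd3 KD it gave 0.76 and 1.02, and in Chd4 KD 0.70 and 1.07. The Tet1-labelled arrays gave -0.27 and -0.32, the Mbd2-labelled arrays -0.29 and -0.31, and Dnmt1 KD -0.28 and -1.17. Phf19 signal was thus high on the 4 arrays of Mbd3 KD and Chd4 KD, near the control level on 5 KD arrays, and lowest on the second Dnmt1 KD array.

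The Phf19 difference was 1.13 ± 0.28 (SE, n = 2) on the log2 scale in both Mbd3 KD and Chd4 KD, a signal 2.19-fold and 2.18-fold that of the control. Neither passed the adjustment over all genes (limma, adjusted p = 0.17 in Mbd3 KD and 0.096 in Chd4 KD, with unadjusted p of 0.0045 and 0.0046). By p value Phf19 stood among the lowest 2.66% of genes in Mbd3 KD and the lowest 4.8% in Chd4 KD. Both comparisons use the same 2 control arrays. In Dnmt1 KD the difference was -0.48 ± 0.28 (SE, n = 2, limma adjusted p = 0.94), and it rests on 1 array: the replicates were 0.89 apart, the widest gap of any member. For the Tet1-labelled and Mbd2-labelled arrays the differences were -0.05 and -0.06, with 95% intervals of -0.70 to 0.60 and -0.71 to 0.59.

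The same direction was seen within slides. On slide 1, Mbd3 KD was 0.98 above EGFP KD, and on slide 2, Chd4 KD was 0.96 above EGFP KD, in log2 units of 1 array against 1. Slide 3 holds no control, but there the second Mbd3 KD and Chd4 KD arrays (1.02 and 1.07) were 1.34 and 1.39 above the Mbd2-labelled array (-0.31). On slide 1 the first Mbd3 KD array was 1.05 above the Mbd2-labelled array, and the Mbd3 and Chd4 KD arrays that share slide 3 differed from each other by 0.05. With the slide as a block the differences were 1.06 ± 0.33 (SE) in Mbd3 KD and 1.20 ± 0.31 (SE) in Chd4 KD (limma, adjusted p = 0.27 and 0.12). Without the first Tet1-labelled and Mbd2-labelled replicates both differences remained 1.13, with adjusted p of 0.4 and 0.26 (limma).

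The Chd4 KD call for Phf19 depends on how the spread is estimated. The spread pooled over the 6 groups includes the Dnmt1 KD pair, whose gap in Phf19 was 0.89. Without the first or without the second Dnmt1 KD array, or without that group, the standard error fell from 0.28 to 0.15 and the adjusted p of Phf19 was 0.018 in Chd4 KD and 0.054 in Mbd3 KD (limma). These 3 alternatives gave the same values, since a lone array adds nothing to the estimate of spread. With array weights it was 0.033 and 0.15. In the other 22 of 26 alternatives Phf19 was not called in Chd4 KD, and in Mbd3 KD it was called in none of 26, with adjusted p from 0.054 to 0.51. In every alternative the difference was above 0, from 0.69 to 1.26 in Mbd3 KD and from 0.92 to 1.32 in Chd4 KD, the lowest of each with the normexp background correction, which models signal over local background (adjusted p = 0.41 and 0.16).

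**Figure D3:**
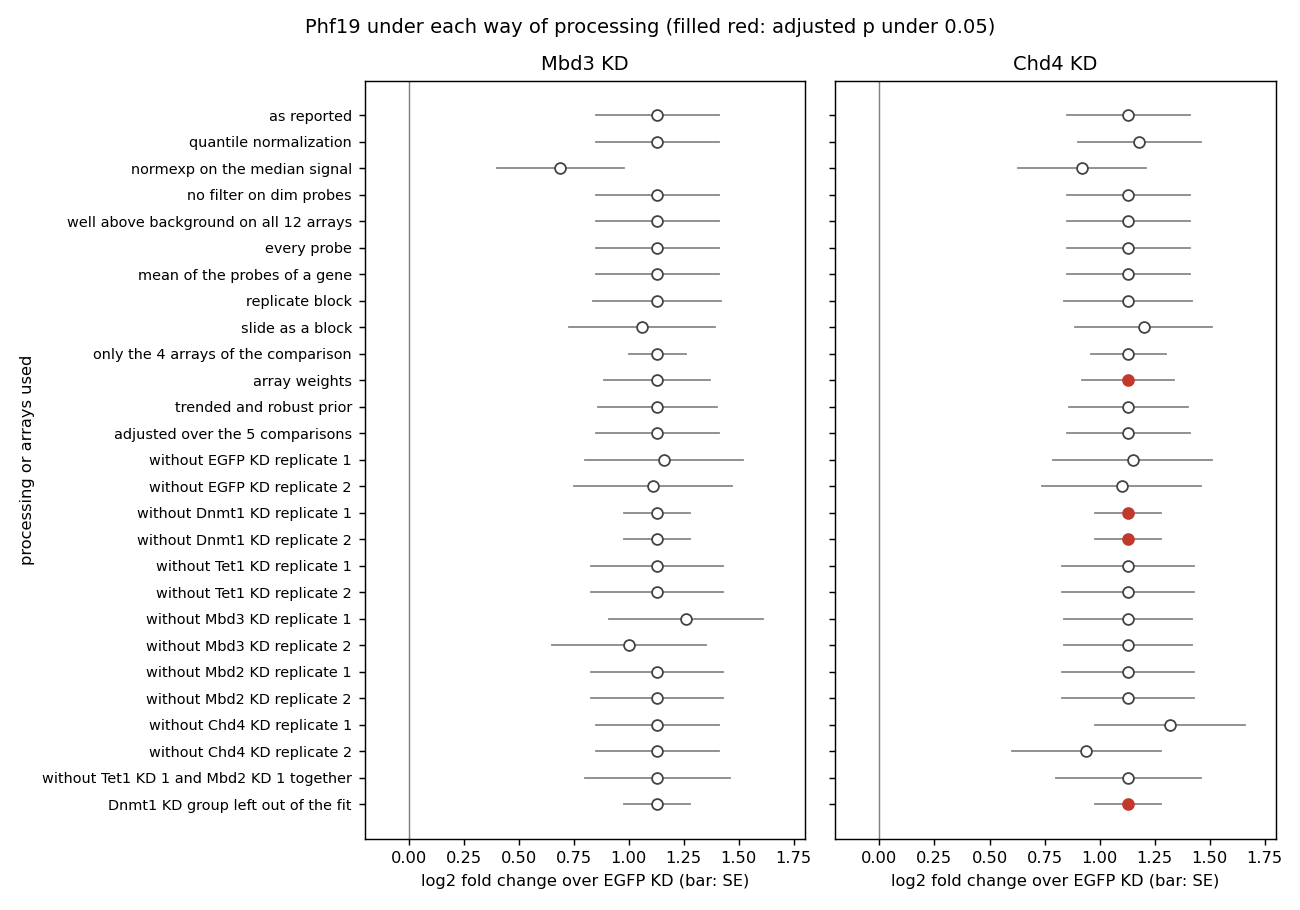
Log2 fold change of Phf19 over EGFP KD (horizontal axis, bars are standard errors) in Mbd3 KD and Chd4 KD under each way of processing or choice of arrays (vertical axis); filled red points passed an adjusted p of 0.05 (limma). All points lie above 0, and the 4 red points, all in Chd4 KD, are those with array weights or without Dnmt1 KD arrays.

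Counted without a test, the number of members with both KD arrays on 1 side of both control arrays was 2 in Dnmt1 KD (Eed and Phf19, both lower), 0 on the Tet1-labelled arrays, 3 in Mbd3 KD (Eed lower, Jarid2 and Phf19 higher), 3 on the Mbd2-labelled arrays (Ezh1 and Phf19 lower, Ezh2 higher) and 4 in Chd4 KD (Ezh2 and Eed lower, Jarid2 and Phf19 higher). Over all genes the corresponding shares were 20.9%, 35%, 30%, 22.7% and 37.9%. By direction, 10% of all genes were lower and 10.9% higher in Dnmt1 KD, 17% lower and 13% higher in Mbd3 KD, 11.9% lower and 10.9% higher on the Mbd2-labelled arrays, and 18.6% lower and 19.3% higher in Chd4 KD. Against these shares, counts out of 7 genes single out nothing particular to PRC2. The counts for the Tet1-labelled and Mbd2-labelled arrays rest on those labels, which the targeted genes went against in the first replicates.

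The variation of the members over the 12 arrays ranked in the order Eed, Mtf2, Ezh2, Ezh1, Suz12, Jarid2 and Phf19, with standard deviations of 0.12, 0.15, 0.19, 0.20, 0.23, 0.29 and 0.69. Phf19 was at or above 84.7% of all genes in this respect, and every other member was at or below the 42.8% reached by Jarid2.

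Further PRC2 partners, among them the histone chaperones Rbbp4 and Rbbp7 that PRC2 shares with NuRD, formed a list of 8 genes, all tested, and none passed the test in any comparison. Their median log2 fold change was 0.00 in Chd4 KD and -0.08 in Mbd3 KD, against 0.00 and -0.04 for all genes. Lcor, from this list, lay near the background, with -4.46 and -3.76 on the control arrays and -4.57 and -4.86 in Mbd3 KD. In that KD 1 array was at the floor of the scale and not well above background (limma, adjusted p = 0.58). Which transcripts of Lcor its probe detects was not examined. Ezhip, an inhibitor of PRC2, gave -0.46 ± 0.28 (SE, n = 2) in Mbd3 KD (limma, adjusted p = 0.75). The H3K27 demethylases Kdm6a and Kdm6b, which remove the mark that PRC2 sets, did not pass either. Kdm6b gave 0.12 and 0.16 on the control arrays and -0.54 and -0.37 in Mbd3 KD, a difference of -0.59 ± 0.12 (SE, n = 2, limma adjusted p = 0.1). The largest Kdm6a difference was 0.34 ± 0.26 (SE, n = 2) on the Tet1-labelled arrays (limma, adjusted p = 1).

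PRC1, the complex that ubiquitinates histone H2A and binds the mark set by PRC2, was represented by 23 genes, of which 22 were tested and Cbx8 was too dim. In Chd4 KD 1 gene rose, 1 fell and 20 did not pass, where 1.96% of all genes rose and 1.21% fell, with a median of 0.00, as over all genes. E2f6, a repressor of the E2F family found in a variant PRC1, rose from 0.74 and 0.55 in the control to 1.51 and 1.24, a log2 fold change of 0.73 ± 0.14 (SE, n = 2, limma adjusted p = 0.047). Scmh1, a sex-comb-on-midleg homologue, fell from -2.43 and -2.35 to -2.92 and -2.96, a log2 fold change of -0.55 ± 0.10 (SE, n = 2, limma adjusted p = 0.034). Both calls are near the threshold and were kept in 9 (E2f6) and 13 (Scmh1) of 26 alternatives. With normexp 4 PRC1 genes were called, Phc2 and Kdm2b beside these. No PRC1 gene passed in the other 4 comparisons.

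Silencing targets of PRC2 in ES cells were represented by 53 developmental regulators chosen from general knowledge of the field, of which 50 were tested. Of these, 2 rose and 48 did not pass in Chd4 KD, where 1.96% of all genes rose, and none passed in the other 4 comparisons. The median in Chd4 KD was 0.00, as over all genes, in Mbd3 KD -0.13 against -0.04, and on the Tet1-labelled arrays 0.27 against 0.09. Both Tet1-labelled arrays lie on slide 2, with 91.9 and 90.6% of probes well above background. On the EGFP KD arrays the shares were 80.8 and 91.6%. Only 35 of the 50 genes were well above background on all 12 arrays. Over all genes, both Tet1-labelled arrays were above both controls for 23.1% and below them for 11.9%. The part of these differences in the 0.27 was not tested. Hnf4a, a nuclear receptor of liver and gut, rose from -2.76 and -2.79 to -1.98 and -2.03 in Chd4 KD (0.77 ± 0.12, SE, n = 2, limma adjusted p = 0.023). Irx3, an Iroquois homeobox gene, was at the floor of the scale (-4.86) on both control arrays, 1 of which was well above background, and gave -4.07 and -4.24 in Chd4 KD, at least 1.64-fold higher against that floor (limma, adjusted p = 0.035). The Chd4 KD calls were kept in 15 of 26 alternatives for Hnf4a and in 9 of 24 for Irx3. With normexp Hnf4a gave 0.59 ± 0.17 (SE, limma adjusted p = 0.14) and Irx3 was at the floor on all 4 arrays compared.

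**Figure D4:**
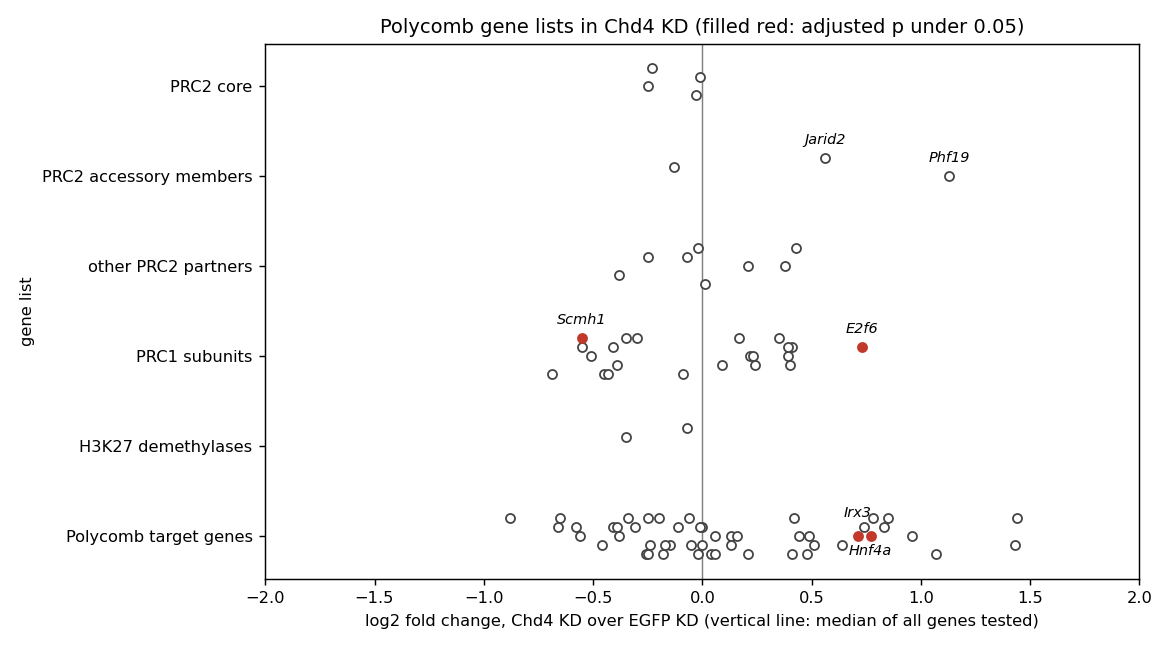
Log2 fold change of single genes in Chd4 KD over EGFP KD (horizontal axis) for the PRC2 subunits and related gene lists (vertical axis; points are spread vertically for legibility); filled red points passed an adjusted p of 0.05 (limma). Of the PRC2 genes none is red, and the 4 red points are E2f6, Hnf4a and Irx3 above 0 (Irx3 as a lower bound) and Scmh1 below 0.

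Markers of ES cells (10 genes) were well above background on all 12 arrays for 9 genes, and none passed the test in any comparison. Their summed scaled signal was 179 to 202 in EGFP KD, 161 to 209 in Mbd3 KD and 161 to 188 in Chd4 KD. Of 8 fibroblast markers Postn was too dim to be tested, and the summed signal of the other 7 was 5.24 to 5.86 in EGFP KD, 9.54 to 10 in Mbd3 KD and 9.42 to 12.6 in Chd4 KD. It was 7.3 to 7.42 in Dnmt1 KD, 6.49 to 6.73 on the Tet1-labelled and 5.3 to 6.33 on the Mbd2-labelled arrays, where Phf19 was not high. Of the 7, Thy1 rose in Mbd3 KD and Chd4 KD (limma, adjusted p = 0.011 and 0.0021) and Col1a1 rose in Chd4 KD (adjusted p = 0.002). In Chd4 KD the other 5 did not pass, and the list's median was -0.23 in Mbd3 KD and -0.50 in Chd4 KD. For the 7 markers of parietal and primitive endoderm the sums were 39 to 44.2 in EGFP KD, 40.5 to 42 in Mbd3 KD and 31.1 to 39.1 in Chd4 KD, and 1 of them, Lama1, fell in Chd4 KD (limma, adjusted p = 0.0045). In the same order of groups the sums of 6 neural progenitor markers, none of which passed, were 1.91 to 2.26, 1.35 to 1.9 and 2.05 to 2.53, with Olig2 not well above background in Mbd3 KD. Those of 6 trophoblast markers were 0.391 to 0.515, 0.251 to 0.37 and 0.472 to 0.613, and Gata3 was at least 2.34-fold lower in Mbd3 KD (limma, adjusted p = 0.034), where it and Cdx2 were not well above background. The trophoblast sums were also low in Dnmt1 KD (0.32 to 0.396) and on the Mbd2-labelled arrays (0.353 to 0.366), against 0.454 to 0.487 on the Tet1-labelled ones. The part of these differences in the Phf19 and Jarid2 values was not tested.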

How the data were processed

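The authors hybridised total RNA of 12 E14 ES cell samples (6 KD groups, 2 arrays each, by the sample labels) to one-colour arrays. Scans were read with Agilent Feature Extraction 10.7.1.1. The deposited scanner files hold background-subtracted processed signal as intensity, which the authors did not scale between arrays in these files, and the median and background intensity used for an alternative. A deposited table of the authors' own comparisons of KD with control was not used. Here, 1377 control spots and spots flagged as outliers were left out. Processed signal was divided by each array's 75th percentile, floored at 0.0344, the highest over the arrays of the lowest signal well above background, and turned into log2. The deposited intensity thus enters as log2 values computed here. Spots of a probe were averaged, and a probe was kept if both arrays of 1 group or more measured it well above background. The brightest probe stood for its gene. RefSeq accessions gave a symbol to 98.4% of spots with a curated mRNA accession and to 71.4% of all spots, and 19390 of the 29838 genes tested have one. Each KD was compared with EGFP KD with limma 3.58.1 (R 4.3.3) in 1 model over 12 arrays, with Benjamini-Hochberg adjustment over all genes within a comparison and a threshold of 0.05. The study describes biological duplicates and the labels number them without naming cultures, so p values measure the spread between these arrays, which may be partly technical. The number of arrays limits the precision. The code was tested on simulated data.

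Members and gene lists were chosen with earlier results of these data known. All members with every probe were named, and from each related list the genes called, at most 6, or else the 2 of largest change. Targeted genes, marker lists by counts and ranges, and for each member the 1 gene of most similar pattern were also given. Alternatives were quantile normalization, another background correction (normexp with an offset of 50 on the median signal, leaving out 7 spots whose local background was over 10 times the median of their array), other filters and probe rules, blocks for replicate number or slide, array weights, a trended robust prior, only the 4 arrays compared, adjustment over all comparisons, and leaving out arrays. Protein and probe sequences were not analysed here, and 1 gene of the list of PRC2 targets is not reported here.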

Additional observations from a re-analysis of the deposited data

How the results depend on the processing

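The 35 member values were recomputed under 25 or 26 alternatives each. Of these values, 34 were called in no alternative, and the exception was Phf19 in Chd4 KD. In 23 of them the sign changed in at least 1 alternative, 49 times in 903 tests, and the largest reported log2 fold change among these was 0.20 in size. The number of members called in Chd4 KD was 0, but 1 with array weights, 0 to 1 when single arrays were left out (1 without either Dnmt1 KD array), and 1 without the Dnmt1 KD group, an alternative chosen after seeing the data. In each case the member was Phf19. In the other 4 comparisons it was 0 throughout. Of the 4 calls in the related lists (E2f6, Scmh1, Hnf4a and Irx3 in Chd4 KD) none changed sign.

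Calls over all genes in Mbd3 KD and Chd4 KD were 230 and 946. They were 57 and 1291 with the slide as a block, 133 and 843 with quantile normalization, 666 and 1793 with normexp, 96 and 681 over probes well above background on all 12 arrays, 98 and 1174 with array weights, 68 and 708 with the trended robust prior, 170 and 453 with adjustment over all comparisons, and 125 and 861 without the Dnmt1 KD group. Of the 230 and 946 calls 62.2% and 61.7% were higher than EGFP KD, and 52.4% and 42.9% with normexp. Leaving out single arrays gave 26 to 125 in Mbd3 KD (26 without Mbd3 KD replicate 1, 28 without EGFP KD replicate 1) and 312 to 861 in Chd4 KD (312 without EGFP KD replicate 1, 330 without Chd4 KD replicate 2). Without the arrays labelled Tet1 KD replicate 1 and Mbd2 KD replicate 1 they were 0 and 508, and with only the 4 arrays of a comparison 0 and 0. For Dnmt1 KD and the Tet1-labelled and Mbd2-labelled arrays no gene was called, and at most 39, 32 and 46 under any alternative. With a replicate block the Mbd3 KD and Chd4 KD calls were 241 and 1282, and the members called stayed at 0 in all 5 comparisons. The main fit did not pair samples by replicate number, as the labels do not say that the numbers pair them. Over 15 pairs of groups the correlation of the replicates' deviations ran from -0.042 to 0.767. Its median was 0.383, and 10 exceeded 0.1, so deviations were partly shared between groups. Replicates of several groups also share slides, and the 2 sources were not told apart. With 2 arrays per group, few arrays limit what can be called.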

Other observations

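For each member, the gene with the most similar pattern over the 12 arrays was sought among 15632 genes with a symbol that were well above background on every array. The points share slides, the 2 control arrays and the array scaling, and the highest of so many correlations is high by construction, so the values are descriptions only. Phf19 was most like Kif1a, a kinesin motor of axonal transport, with Pearson's r of 0.971, Spearman's rho of 0.888 and r of 0.975 after centring each slide. Kif1a gave -2.06 and -2.02 in EGFP KD, -0.58 and -0.37 in Mbd3 KD and -0.07 and 0.04 in Chd4 KD, and its lowest value, -3.03, was on the same second Dnmt1 KD array as the lowest of Phf19. Ezh1 was most like Ddx31 (r = 0.967), Ezh2 like C330018D20Rik (r = 0.953), Eed like Rbmxl1 (r = 0.94), Suz12 like Prpf39 (r = 0.933), Jarid2 like Cyp20a1 (r = 0.927) and Mtf2 like Akap6 (r = 0.896). No 2 members had the same most similar gene.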
